A study of Arabidopsis thaliana with 33 samples.

Results

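WRKY transcription factors are a large family of plant DNA-binding proteins named for a conserved stretch of amino acids in their DNA-binding domain. They bind a short promoter element called the W-box and are known for switching on and off the genes of pathogen defence, leaf senescence, nutrient supply and abiotic stress. They are sorted into group I, with a pair of WRKY domains, and groups II and III, with 1 domain each and different zinc fingers. The WRKY genes described here were the 6 probe sets of the Affymetrix ATH1 array whose only gene symbol in the platform annotation was WRKY or ATWRKY followed by digits, out of 22746 probe sets, of which 22645 were tested. They were WRKY6 (locus AT1G62300), WRKY42 (AT4G04450) and WRKY47 (AT4G01720) of group IIb, WRKY20 (AT4G26640) of group I, WRKY22 (AT4G01250) of group IIe and WRKY53 (AT4G23810) of group III. RefSeq (TAIR10.1) lists 72 WRKY genes, and since 8730 probe sets have no symbol in the platform annotation and 503 have several, most of the family was not analysed here. A further WRKY probe set carries the symbol ZAP1 (AT2G04880, the gene also called WRKY1), and the identities of WRKY18 (AT4G31800) and WRKY9 (AT1G68150) came only from the study's lists of called genes, so these 3 were kept apart.

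The arrays measured total RNA of roots and of shoots (all aerial parts with the hypocotyl) of light-grown Arabidopsis thaliana seedlings, ecotype Wassilewskija (WS), which were 10 days old when they were moved for 24 h to low pressure growth chambers. The 6 atmospheres were 97 kPa (the local ambient pressure and the control, with 21 kPa oxygen), 50 kPa (10 kPa oxygen), 25 kPa (5 kPa oxygen), 50 kPa/NormOx and 25 kPa/NormOx (the same low pressures with oxygen restored to 21 kPa) and 97 kPa/HypOx (normal pressure with 5.1 kPa oxygen). Carbon dioxide was 0.05 kPa in each of them. The 15 root arrays comprised 3 each at 97 kPa, 97 kPa/HypOx, 50 kPa and 25 kPa, 2 at 50 kPa/NormOx and 1 at 25 kPa/NormOx, and the 18 shoot arrays 3 each at 97 kPa, 50 kPa, 25 kPa and 25 kPa/NormOx, 4 at 50 kPa/NormOx and 2 at 97 kPa/HypOx. Each atmosphere was run in 3 chambers, and 1 tube of seedlings from 1 plate was taken per chamber and dissected into root and shoot. Which chamber a replicate number stands for is not stated, nor the origin of the fourth shoot array at 50 kPa/NormOx, and the p-values measure the spread between these arrays. Values are on the log2 scale of Robust Multi-array Average (RMA) normalization, which was run separately for roots and shoots, so levels were not tested across the tissues.

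An array from each tissue stood apart from the rest. Over all tested probe sets, root 97 kPa replicate 1 correlated with the others of its tissue at a mean r of 0.884, against 0.966 to 0.980 for each of those, and shoot 50 kPa/NormOx replicate 1 had 0.898 against 0.974 to 0.983. The deviations of these arrays from the mean of their tissue correlated at r = 0.77 over the 22645 probe sets, which are not independent replicates. These 2 arrays are called the outlying arrays, and results that rest on them are given with and without them. The tissue labels were checked with the marker genes that the annotation names. The green tissue markers LHCB4.1, PSAE-1 and RCA lay between 6.01 and 8.93 in roots and between 11.77 and 12.70 in shoots. The root markers PYK10 and EXPA7 lay between 6.70 and 12.62 in roots and between 4.24 and 9.87 in shoots. EXPA7, a root hair expansin, was also the highest of its tissue on both outlying arrays, with 8.36 in the root array against 6.70 to 7.58 and 7.11 in the shoot array against 4.24 to 5.50. In roots the 3 green markers had their highest group means at 25 kPa (PSAE-1 8.46 and RCA 6.90, against 7.63 and 6.40 at 97 kPa). Whether a different cell make-up of these samples bears on the WRKY values was not tested.

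WRKY6, known as a regulator of senescence and defence and as a repressor of the phosphate exporter PHO1, had the smallest spread of the 6 across root arrays (SD 0.13, n = 15). Its values were 7.58, 7.25 and 7.22 at 97 kPa, 7.47, 7.45 and 7.10 at 50 kPa, 7.37, 7.48 and 7.16 at 25 kPa, 7.37 and 7.30 at 50 kPa/NormOx, 7.32 at 25 kPa/NormOx and 7.32, 7.35 and 7.26 at 97 kPa/HypOx. All 6 groups therefore overlapped, and their means spanned 0.04. In bulk tissue such as this, fewer cells of a type and less RNA per cell cannot be told apart. In shoots it was 4.93, 4.57 and 4.95 at 97 kPa, 4.76, 5.28 and 4.97 at 50 kPa, 5.23, 5.03 and 5.09 at 25 kPa, 4.91, 4.76, 4.88 and 4.90 at 50 kPa/NormOx, 5.03, 4.92 and 4.64 at 25 kPa/NormOx and 4.93 and 4.82 at 97 kPa/HypOx. Only the 25 kPa arrays lay wholly above those at 97 kPa, by a log2 fold change of 0.30 (SE 0.14, n = 3 against 3, unadjusted p = 0.0471 in the limma fit, adjusted p = 0.653). The root values of WRKY6 (7.10 to 7.58) and its shoot values (4.57 to 5.28) did not overlap, although the separate normalization allows no test of this, whereas those of each of the other 5 members did.

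WRKY42, a partner of WRKY6 in phosphate supply that is known to repress PHO1 and to activate the phosphate transporter PHT1;1, was called in no contrast in either tissue. Its root values were 4.87, 4.71 and 3.86 at 97 kPa, 4.59, 3.96 and 4.16 at 50 kPa, 4.12, 4.03 and 4.24 at 25 kPa, 3.94 and 4.09 at 50 kPa/NormOx, 3.79 at 25 kPa/NormOx and 4.01, 4.26 and 4.41 at 97 kPa/HypOx. The 3 control arrays alone spanned most of this range, and only the single 25 kPa/NormOx array fell outside them. In shoots WRKY42 was 4.51, 4.1 and 4.44 at 97 kPa, 4.01, 3.96 and 4.12 at 50 kPa, 4.21, 4.60 and 4.13 at 25 kPa, 4.23, 3.98, 4.17 and 4.27 at 50 kPa/NormOx, 4.06, 4.06 and 4.00 at 25 kPa/NormOx and 4.08 and 4.23 at 97 kPa/HypOx. The log2 fold changes at 50 kPa (-0.32, SE 0.13, unadjusted p = 0.0278, adjusted p = 0.756 in limma) and at 25 kPa/NormOx (-0.31, SE 0.13, unadjusted p = 0.0322, adjusted p = 1.00) were the most negative of the 6 in those atmospheres. The 3 arrays at 25 kPa/NormOx lay below all 3 controls, while 1 of the 3 at 50 kPa reached above the lowest control.

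WRKY47 was the remaining IIb member. Outside the outlying array its root values ran from 4.84 to 5.47, and the outlying control stood at 6.10. The control values were 6.10, 5.20 and 4.89, against 5.35, 5.10 and 4.84 at 50 kPa, 5.21, 5.47 and 4.98 at 25 kPa, 5.16 and 5.20 at 50 kPa/NormOx, 5.17 at 25 kPa/NormOx and 5.21, 5.22 and 5.20 at 97 kPa/HypOx. The 97 kPa/HypOx arrays were nearly alike, and the controls were the most spread of the groups. In shoots WRKY47 was 5.32, 4.44 and 4.57 at 97 kPa, 4.95, 5.27 and 5.04 at 50 kPa, 5.29, 5.19 and 4.93 at 25 kPa, 6.11, 4.70, 4.99 and 4.94 at 50 kPa/NormOx, 5.15, 5.03 and 4.89 at 25 kPa/NormOx and 5.18 and 4.92 at 97 kPa/HypOx. Its highest shoot value was again that of the outlying array, and every group overlapped the controls.

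WRKY20, of group I, had the root replicates that were least alike of the 6 genes. In roots it was 8.27, 7.25 and 5.68 at 97 kPa, 7.27, 5.94 and 6.23 at 50 kPa, 6.48, 6.68 and 6.40 at 25 kPa, 6.52 and 6.55 at 50 kPa/NormOx, 6.80 at 25 kPa/NormOx and 6.65, 6.36 and 6.73 at 97 kPa/HypOx. The highest and the lowest of the 15 root arrays were both controls, so that all other values fell inside the control range. The SD within groups was 0.71, at percentile 97.9 of all root probe sets, and 0.54 without the outlying array, at percentile 98.2. In shoots WRKY20 was 7.11, 6.58 and 6.60 at 97 kPa, 6.46, 6.84 and 6.50 at 50 kPa, 6.88, 7.01 and 6.65 at 25 kPa, 7.59, 6.22, 6.96 and 6.73 at 50 kPa/NormOx, 7.18, 6.54 and 6.69 at 25 kPa/NormOx and 6.80 and 6.72 at 97 kPa/HypOx, and all groups overlapped.

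WRKY22, which acts at the end of the kinase cascade set off by bacterial flagellin and is also known from dark-induced senescence and submergence, had the widest span of group means in roots, 0.75. It was 6.40, 4.30 and 3.96 at 97 kPa, 4.90, 4.12 and 4.00 at 50 kPa, 4.35, 4.05 and 4.06 at 25 kPa, 4.01 and 4.25 at 50 kPa/NormOx, 4.37 at 25 kPa/NormOx and 4.16, 4.18 and 4.53 at 97 kPa/HypOx. This span rested on the outlying array, since without it the group means spanned 0.24. In shoots WRKY22 was 5.13, 4.57 and 5.48 at 97 kPa, 4.86, 5.00 and 5.34 at 50 kPa, 5.06, 4.99 and 5.06 at 25 kPa, 6.52, 4.98, 5.28 and 5.39 at 50 kPa/NormOx, 5.19, 5.35 and 4.90 at 25 kPa/NormOx and 4.74 and 4.75 at 97 kPa/HypOx. The 97 kPa/HypOx arrays were the lowest group, inside the range of the controls, and the span of the shoot group means was 0.80 with the outlying array and 0.47 without it.

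**Figure D1:**
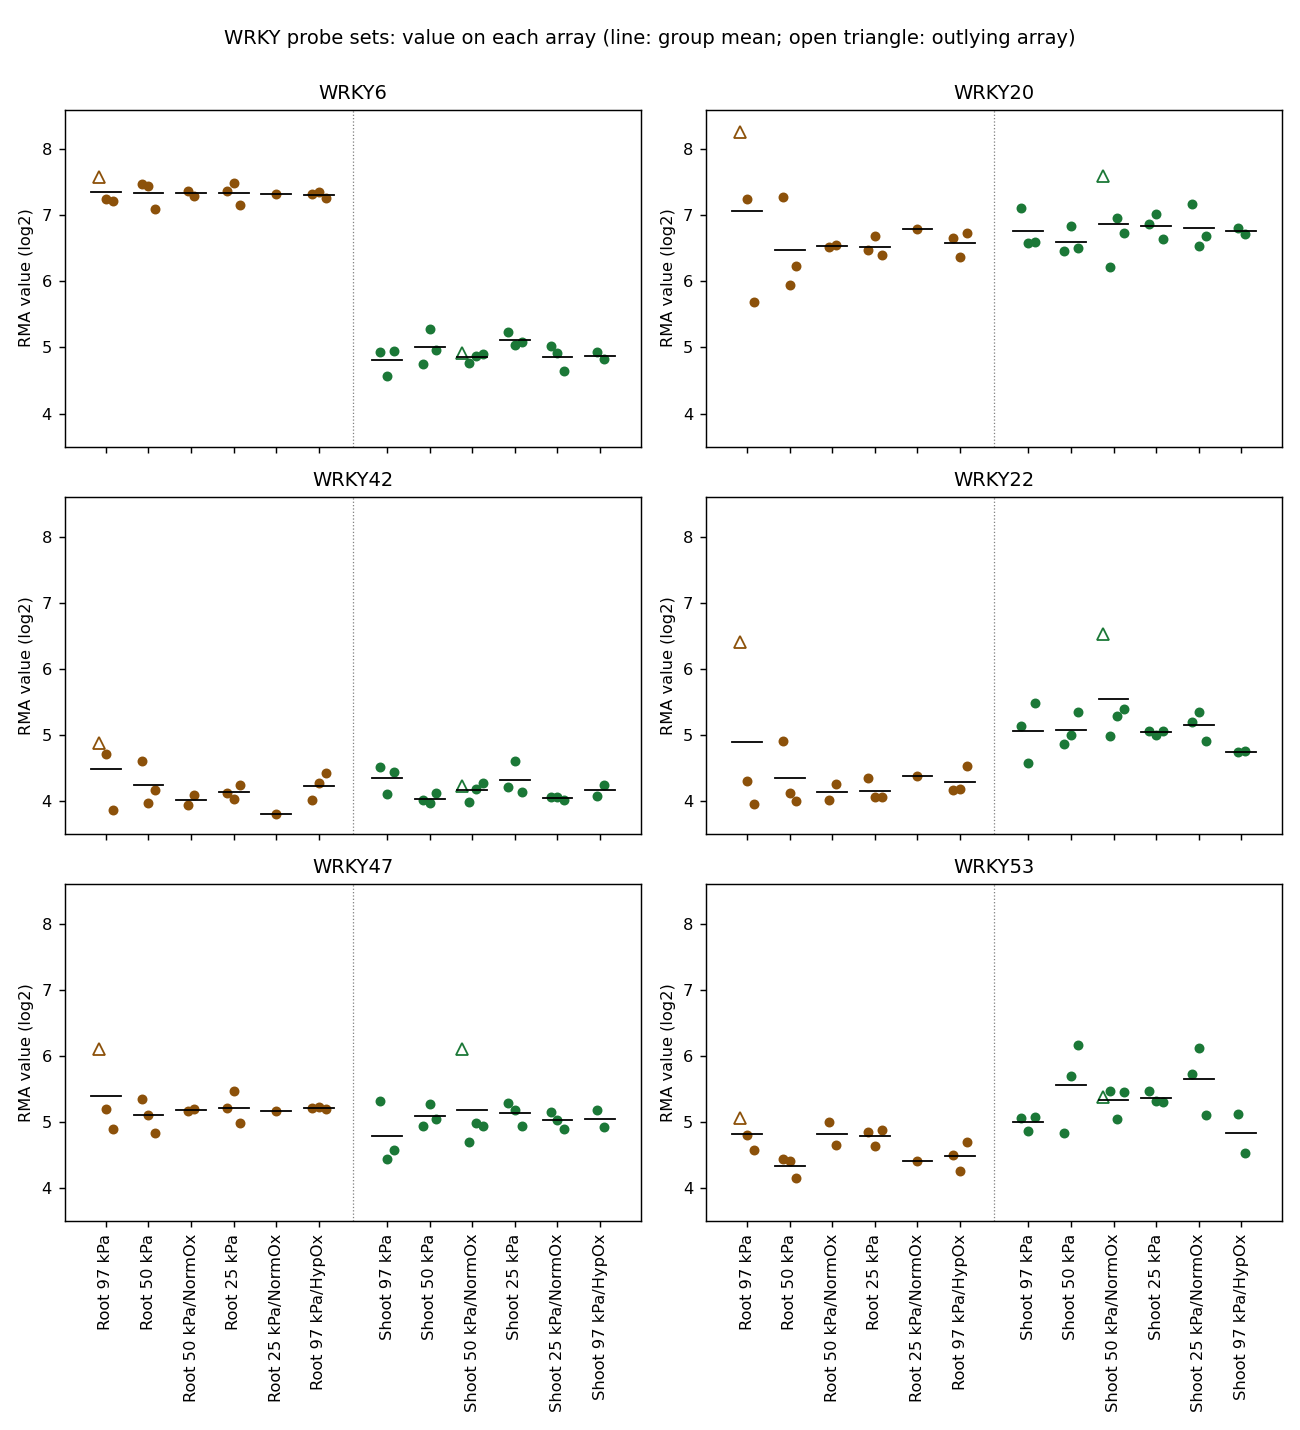
RMA value (log2) of the 6 WRKY probe sets on each of the 33 arrays, roots in brown and shoots in green, by atmosphere, with a line at each group mean and an open triangle for each outlying array. WRKY6 is split by tissue (7.10 to 7.58 in roots, 4.57 to 5.28 in shoots), and the triangles are the highest points of their tissue for WRKY20, WRKY22 and WRKY47.

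WRKY53, a group III regulator known for promoting leaf senescence and for its part in defence, had the widest span of group means in shoots, 0.82. It was 5.06, 4.87 and 5.07 in shoots at 97 kPa, 4.84, 5.70 and 6.16 at 50 kPa, 5.47, 5.32 and 5.30 at 25 kPa, 5.37, 5.46, 5.05 and 5.46 at 50 kPa/NormOx, 5.72, 6.12 and 5.11 at 25 kPa/NormOx and 5.12 and 4.54 at 97 kPa/HypOx. By group mean the order was 25 kPa/NormOx (5.65 ± 0.51, SD, n = 3), 50 kPa (5.57 ± 0.67, n = 3), 25 kPa (5.36 ± 0.09, n = 3), 50 kPa/NormOx (5.34 ± 0.19, n = 4), 97 kPa (5.00 ± 0.11, n = 3) and 97 kPa/HypOx (4.83 ± 0.42, n = 2), and each neighbouring pair in this order overlapped. The 25 kPa and 25 kPa/NormOx arrays all lay above the controls, with log2 fold changes of 0.36 (SE 0.29, unadjusted p = 0.230, adjusted p = 1.00) and 0.65 (SE 0.29, unadjusted p = 0.0404, adjusted p = 1.00) in limma. At 50 kPa the fold change was 0.57 (SE 0.29, unadjusted p = 0.0702), with 1 of the 3 arrays below all controls.

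In roots WRKY53 was 5.06, 4.81 and 4.58 at 97 kPa, 4.44, 4.41 and 4.15 at 50 kPa, 4.85, 4.63 and 4.89 at 25 kPa, 5.00 and 4.65 at 50 kPa/NormOx, 4.41 at 25 kPa/NormOx and 4.49, 4.26 and 4.70 at 97 kPa/HypOx. All 3 arrays at 50 kPa lay below the controls and below both 50 kPa/NormOx arrays, from which 16.4% of all probe sets were as fully separated. The log2 fold change at 50 kPa was -0.48 against 97 kPa (SE 0.16, 95% confidence interval -0.84 to -0.13, unadjusted p = 0.0123, adjusted p = 0.383 in limma) and -0.49 against 50 kPa/NormOx (SE 0.18, unadjusted p = 0.0198, adjusted p = 1.00), so neither passed the threshold. Without the outlying array the first of these was -0.36 (unadjusted p = 0.0501). The order of the root means was 50 kPa/NormOx (4.82 ± 0.25, SD, n = 2), 97 kPa (4.81 ± 0.24, n = 3), 25 kPa (4.79 ± 0.14, n = 3), 97 kPa/HypOx (4.48 ± 0.22, n = 3), 25 kPa/NormOx (4.41, n = 1) and 50 kPa (4.33 ± 0.16, n = 3), again with overlap between neighbours. Of all neighbouring pairs in the orders of the 6 genes, 28 of 30 overlapped in roots and 28 of 30 in shoots. The share for all probe sets is not given here, so these counts cannot be read as a result about the WRKY genes.

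None of the 6 WRKY probe sets was called in any of the 16 contrasts within a tissue. To be called, a probe set had to differ by 1 log2 unit or more with p below 0.01 before adjustment, the threshold of the study's methods, in a limma fit of all arrays of a tissue. Against 97 kPa, 0 of 6 were called in roots at 50 kPa and 50 kPa/NormOx, at 25 kPa with its NormOx counterpart, and at 97 kPa/HypOx, where 0.397%, 0.0618%, 0.905%, 0.0397% and 0.627% of all tested probe sets were called. In shoots, 0 of 6 were called in the same order of atmospheres against 0.106%, 0.0486%, 0.283%, 0.053% and 0.185% of all. With calls this rare, a count of 0 among 6 is near the background. At an unadjusted p under 0.05 the counts against 97 kPa were 1 at root 50 kPa (WRKY53, against 11.2% of all probe sets), 1 at shoot 50 kPa (WRKY42, 6.08%), 1 at shoot 25 kPa (WRKY6, 7.45%) and 2 at shoot 25 kPa/NormOx (WRKY42 and WRKY53, 2.58%). They were 0 in roots at 50 kPa/NormOx (6.88%), 25 kPa (15%), 25 kPa/NormOx (3.96%) and 97 kPa/HypOx (10.5%) and in shoots at 50 kPa/NormOx (5.89%) and 97 kPa/HypOx (2.85%). The comparisons of a tissue share its 3 arrays at 97 kPa. WRKY20 was called in roots when replicate 3, its lowest control at 5.68, was left out, with log2 fold changes of -1.28 at 50 kPa, -1.22 at 50 kPa/NormOx, -1.24 at 25 kPa and -1.18 at 97 kPa/HypOx. The controls then left were the outlying array at 8.27 and replicate 2 at 7.25, so these calls keep the outlying array. Fold changes against replicate 2 alone are not given here. Without the outlying array, and with replicate 3 kept, the fold changes were 0.01, 0.07, 0.05 and 0.11 in that order. The share of all probe sets called without replicate 3 is not given here.

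Groups that did not overlap with the controls were few. In roots this was so for WRKY53 at 50 kPa (7.79% of all probe sets) and for WRKY42 and WRKY53 on the single 25 kPa/NormOx array (37.6%). In shoots it was so for WRKY6 and WRKY53 at 25 kPa (14.1%) and for WRKY42 and WRKY53 at 25 kPa/NormOx (7.19%). The other responses had 0 such members, against 18.8%, 15.7% and 10.9% of all probe sets in roots at 50 kPa/NormOx, 25 kPa and 97 kPa/HypOx and 18.2%, 4.6% and 20.2% in shoots at 50 kPa, 50 kPa/NormOx and 97 kPa/HypOx. The F test over the 6 atmospheres found 0 of 6 at an adjusted p under 0.05 in roots, where 0.238% of all probe sets passed, and 0 of 6 in shoots, where 0.0353% passed. Before adjustment, 1 of 6 passed 0.05 in roots, WRKY53, against 6.73% of all, and 0 of 6 in shoots, against 5.56%. The adjusted p of WRKY53 in roots was 0.739.

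The direct contrasts between atmospheres addressed what oxygen and pressure each contribute. Their fold changes leave out the controls. Their SE, intervals and p-values still use the spread of all arrays of the tissue, the controls and the outlying array included. For 50 kPa against 50 kPa/NormOx, 25 kPa against 25 kPa/NormOx and 25 kPa against 97 kPa/HypOx, 0 of 6 were called in roots (0.0397%, 0.216% and 0% of all) and 0 of 6 in shoots (0.0795%, 0.132% and 0.0221% of all). WRKY53 in roots, given above, was the only member at an unadjusted p under 0.05 in any of them, in the first contrast (2.17% of all). The share of all probe sets at that level was 3.58% and 1.73% in the other root contrasts and 7.48%, 6.36% and 2.53% in the shoot contrasts. At 5 kPa oxygen, where 25 kPa and 97 kPa/HypOx differ in pressure, WRKY53 had the largest difference in both tissues, 0.31 in roots (SE 0.16, 95% interval -0.05 to 0.66) and 0.53 in shoots (SE 0.32, -0.16 to 1.22), with adjusted p of 0.999 and 1.00 in limma. In shoots all 6 members had a positive difference there, from 0.08 to 0.53 with a median of 0.20 beside 0.00 over all probe sets, and in roots 3 of 6 did. WRKY6, WRKY22 and WRKY53 did not overlap between these shoot groups (3 of 6, against 24.2% of all probe sets), where 97 kPa/HypOx has 2 arrays, and 0 of 6 were so separated in roots (14.9%).

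How large a change could have been missed differed between the genes. Of the 30 responses against 97 kPa in roots, 17 had a 95% interval that lay inside 1 log2 unit in either direction, and 26 of 30 did in shoots. In roots the half-width of the interval was at most 0.42 for WRKY6 and 0.50 for WRKY53. It reached 0.75 for WRKY42 and 0.79 for WRKY47, and ran from 1.12 to 1.58 for WRKY20 and from 1.08 to 1.52 for WRKY22. For WRKY22 this rested on the outlying control, without which the half-width was 0.53 to 0.71, while it stayed at 0.92 to 1.23 for WRKY20. In shoots the widest half-width was 0.74, for WRKY22, and 0.46 for that gene without the outlying array.

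The direction of the root responses turned on 1 control array. With all arrays the log2 fold changes against 97 kPa were negative for 6 of 6 members in each atmosphere but 50 kPa/NormOx, where 5 of 6 were, and the medians of the 6 ran from -0.39 to -0.27, beside medians over all tested probe sets between -0.00 and 0.02. Without the outlying root array, 5 of the 6 were positive at 25 kPa and at 50 kPa/NormOx and 4 of the 6 in each of the other atmospheres, with medians from 0.03 to 0.10. WRKY42 alone kept a negative value in all 5 atmospheres, from -0.49 to -0.05. WRKY53 was negative in 3 of the 5, at 50 kPa (-0.36), 25 kPa/NormOx (-0.28) and 97 kPa/HypOx (-0.21). In shoots, where the control holds no outlying array, the medians of the 6 were 0.10 at 50 kPa, 0.22 at 50 kPa/NormOx (0.06 without the outlying array), 0.19 at 25 kPa, 0.07 at 25 kPa/NormOx and -0.08 at 97 kPa/HypOx.

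**Figure D2:**
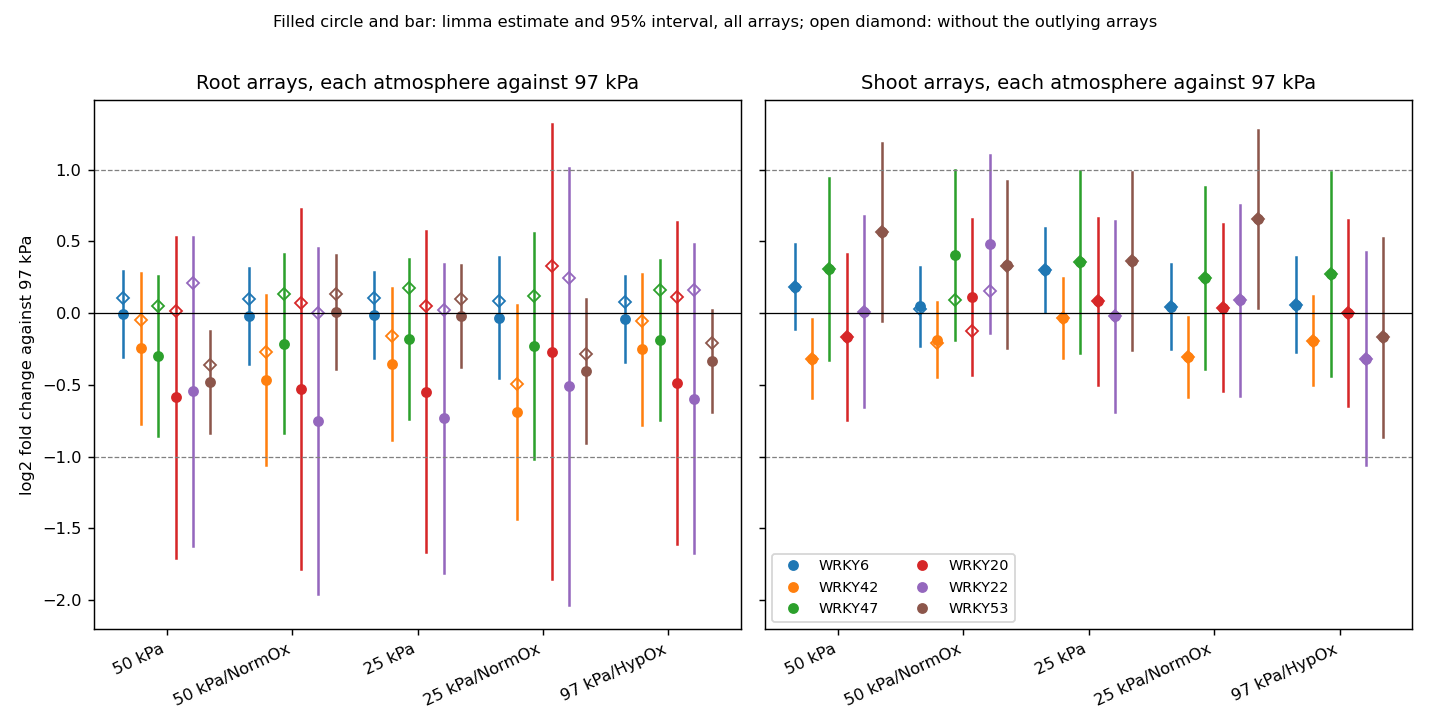
Log2 fold change of the 6 WRKY probe sets against 97 kPa in roots (left) and shoots (right), by atmosphere, with filled circles and 95% intervals from limma with all arrays, open diamonds for the values without the outlying arrays, and dashed lines at 1 log2 unit in either direction. In roots nearly all circles lie below 0 while most diamonds lie above it, with medians of -0.39 to -0.27 and 0.03 to 0.10, and no estimate reaches 1 in size.

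On the outlying root array itself all 6 WRKY probe sets had their highest root value, and on the outlying shoot array 3 of the 6 did, against 26.5% and 26.8% of all probe sets. WRKY22 stood 2.17 above the mean of the other arrays in roots and 1.46 in shoots, WRKY20 stood 1.73 and 0.86 above, and WRKY47 0.94 and 1.12. WRKY6, WRKY42 and WRKY53 were 0.26, 0.72 and 0.47 above the others in roots but within 0.06 of them in shoots. WRKY20, WRKY22 and WRKY47 were thus among the 2058 probe sets, 9.09% of all, that lay over 0.75 above the other arrays on both. The other WRKY probe sets did not share this, since WRKY9 was 1.03 below the other arrays on the root array and 0.14 above on the shoot array, WRKY18 0.85 above and 0.18 below, and ZAP1 0.27 and 0.23 above.

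**Figure D3:**
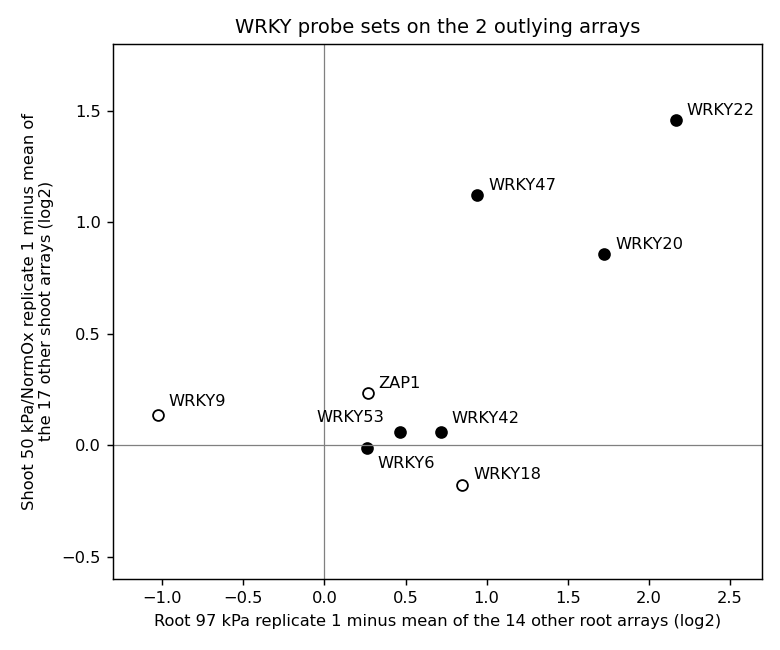
Value on the outlying root array minus the mean of the other root arrays (horizontal, log2) against the same for the outlying shoot array (vertical, log2), for the 6 WRKY probe sets (filled) and ZAP1, WRKY18 and WRKY9 (open). WRKY22, WRKY20 and WRKY47 lie in the upper right, while WRKY6, WRKY42 and WRKY53 lie within 0.06 of 0 on the vertical axis.

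The responses of the tissues were compared in a limma fit of all 33 arrays, as root response minus shoot response. WRKY53 was called at 50 kPa, the 1 call among 6 members, where 0.344% of all probe sets were called. Its mean in roots was 4.81 at 97 kPa and 4.33 at 50 kPa, and in shoots 5.00 and 5.57, a difference of -1.05 (SE 0.35, 95% interval -1.78 to -0.32, unadjusted p = 0.00661, adjusted p = 0.469), so it did not pass after adjustment over all probe sets. Without the outlying arrays the difference was -0.93 (unadjusted p = 0.0211) and was not called. Of the groups in this contrast the shoots at 50 kPa were the most spread (4.84, 5.70 and 6.16), and without the last of these arrays the difference was -0.75 (unadjusted p = 0.0340). The call was also lost without root 97 kPa replicate 2 (-1.05), root 50 kPa replicate 3 (-0.96), shoot 97 kPa replicate 2 (-0.98) or shoot 50 kPa replicate 2 (-0.98), and it was lost at the same difference with the replicate number as a block (unadjusted p = 0.01004) and with only the 4 groups compared in the fit (unadjusted p = 0.0222). At 25 kPa/NormOx, which has 1 root array, the difference was about as large, -1.06 (SE 0.43, unadjusted p = 0.0221, adjusted p = 0.969), with -0.94 without the outlying arrays and a call at -1.33 without shoot 25 kPa/NormOx replicate 3. It was -0.33 at 50 kPa/NormOx, -0.39 at 25 kPa and -0.16 at 97 kPa/HypOx, each with an interval that included 0. The share of all probe sets called with an array left out is not given here.

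In this comparison 0 of 6 were called at 50 kPa/NormOx (0.49% of all probe sets), 25 kPa (0.817%), 25 kPa/NormOx (0.0618%) and 97 kPa/HypOx (0.433%). At an unadjusted p under 0.05 WRKY53 was the 1 member at 50 kPa (6.92% of all) and at 25 kPa/NormOx (3.54%), with 0 at 50 kPa/NormOx (9.47%), 25 kPa (8.69%) and 97 kPa/HypOx (4.8%). WRKY22 at 50 kPa/NormOx had the largest difference of all, -1.24 (SE 0.61, unadjusted p = 0.0546), a contrast that holds both outlying arrays, and it was -0.15 without them. Without root 97 kPa replicate 3, calls appeared at 50 kPa/NormOx for WRKY20 (-1.33) and WRKY22 (-1.70) and at 25 kPa for WRKY20 (-1.32). These calls keep the outlying control, and without the outlying arrays the same differences were 0.20, -0.15 and -0.03. The share of all probe sets called without replicate 3 is not given here, so these calls cannot be read as a result about the WRKY genes. Of the 30 differences 29 were negative with all arrays and 16 without the outlying ones, and they share the same control arrays.

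**Figure D4:**
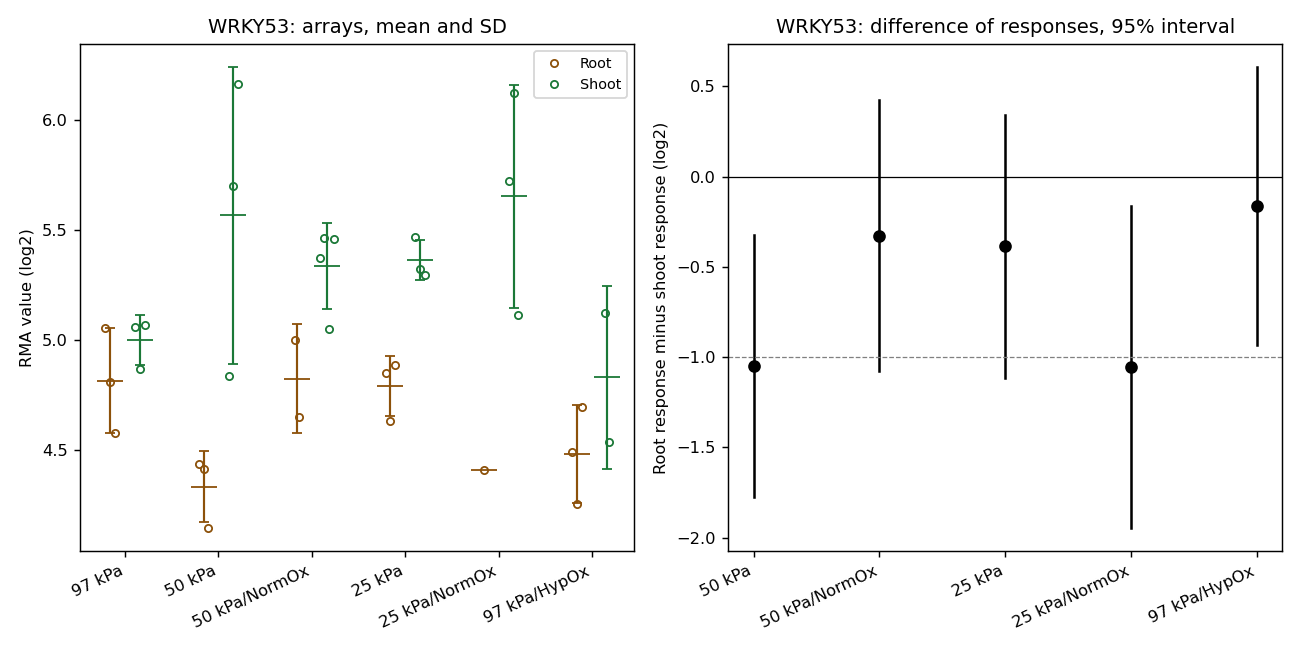
Left, RMA values (log2) of WRKY53 by atmosphere in roots and shoots, with each array as a circle and bars for mean ± SD (no SD for the single root array at 25 kPa/NormOx); right, root response minus shoot response (log2) in each atmosphere with its 95% interval from limma and a dashed line at -1. The difference is -1.05 at 50 kPa and -1.06 at 25 kPa/NormOx, where the intervals lie below 0.

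The 6 genes varied together across root arrays, largely through 1 array. Pearson's r between members had a median of 0.60 over the 15 pairs of genes and the 15 root arrays, and 0.26 over 14 arrays without the outlying one. It was 0.32 over the 18 shoot arrays and 0.33 over 17. WRKY6 and WRKY47, both of group IIb, correlated at 0.82 over 15 root arrays and 0.81 over 14, and at 0.45 over 18 shoot arrays and 0.69 over 17. The other IIb pairs were lower. WRKY6 and WRKY42 had 0.27 and -0.06 in roots and 0.17 and 0.17 in shoots, and WRKY42 and WRKY47 had 0.60 and 0.25, and 0.15 and 0.15. In roots WRKY20 and WRKY22, of different groups, correlated at 0.86 and 0.71, so a shared group did not set the high pairs apart. WRKY20 and WRKY47 correlated at 0.81 and 0.64 in shoots, while WRKY53 and WRKY42 had the lowest value there, -0.22 and -0.23. These arrays share tissue and normalization, so the values describe these arrays only. The median r over pairs of other probe sets is not given here, so these values do not set the 6 genes apart.

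The gene with the widest span of group means in each tissue was set against the other 13420 tested probe sets with 1 symbol. In roots, AT2G04570, AT1G43680, AT3G52130, AT5G04310 and AT1G31370 were most like WRKY22 over 15 arrays, with r of 0.97 to 0.98, but without the outlying array these were replaced by AT1G49030, AT3G28840, AT1G23530, AT3G42580 and Fes1A, with r of 0.90 to 0.91. In shoots the genes most like WRKY53 over 18 arrays were AT2G41410 (r = 0.84), AT1G19310 (0.81), AT5G40590 (0.79), AT3G04640 (0.78) and AT2G26190 (0.77). Of these, AT2G41410, AT1G19310, AT5G40590 and AT2G26190 were also among the closest 5 over 17 arrays, with r of 0.79 to 0.84.

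The 3 WRKY genes outside the rule are given as description. WRKY18, a pathogen-induced member of group IIa, was low in roots (4.01 to 5.03) and read 5.95, 5.57 and 6.36 in shoots at 97 kPa. The other shoot values were 6.13, 7.26 and 7.79 at 50 kPa, 6.88, 6.53 and 6.60 at 25 kPa, 6.44, 6.66, 6.13 and 6.94 at 50 kPa/NormOx, 6.85, 7.17 and 6.21 at 25 kPa/NormOx and 7.08 and 6.45 at 97 kPa/HypOx. The log2 fold changes against 97 kPa were 1.1, 0.71, 0.58, 0.78 and 0.80 in that order. The study picked WRKY18 and WRKY9 from these samples, so these values are not independent evidence of a change. WRKY9, of group IIb, ran the other way between tissues, at 3.69 to 3.99 in shoots and 4.27 to 6.09 in roots. In roots it was 4.27, 4.37 and 5.27 at 97 kPa against 6.09, 5.42 and 5.64 at 25 kPa. This was a log2 fold change of 1.08 (SE 0.28, unadjusted p = 0.00227, adjusted p = 0.150 in limma), and 0.90 without the outlying array. With all arrays it met the threshold for a call, as did 0.905% of all probe sets. The other root fold changes against 97 kPa were also positive, 0.68 at 50 kPa, 0.72 at 50 kPa/NormOx, 0.25 at 25 kPa/NormOx and 0.66 at 97 kPa/HypOx. Without the outlying array they ran from 0.07 to 0.54. ZAP1 lay at 5.54 to 7.37 in roots and 6.09 to 6.82 in shoots, and 5 of its shoot responses were negative, from -0.38 at 50 kPa (SE 0.15, unadjusted p = 0.0271, adjusted p = 0.755 in limma) to -0.09 at 97 kPa/HypOx.

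The annotation names few genes of the pathways around the WRKY proteins. None of 11 listed kinases and partners had a named probe set, and 1 of 14 salicylate and defence genes (SAG101) and 1 of 10 early stress regulators (STZ, the zinc finger protein also called ZAT10) did. Neither was called against 97 kPa in any atmosphere. SAG101, a partner of EDS1 in defence, read 4.25, 4.47 and 4.42 in shoots at 97 kPa and 4.76, 4.85 and 4.79 at 50 kPa, with no overlap, as for 18.2% of all probe sets (log2 fold change 0.42, SE 0.17, unadjusted p = 0.0264, adjusted p = 0.755 in limma). STZ read 6.55, 5.67 and 7.71 in shoots at 97 kPa. It lay above all controls in both groups with oxygen restored, a separation from the controls seen for 4.6% and 7.19% of all probe sets. Its values were 7.84 to 8.45 at 50 kPa/NormOx and 7.94 to 8.25 at 25 kPa/NormOx (log2 fold changes of 1.44 and 1.50, unadjusted p = 0.0271 and 0.0308, adjusted p = 0.759 and 1.00 in limma). The 8.45 was the outlying array, and the highest shoot value, 8.64, was at 50 kPa without oxygen restored. The SD of STZ within shoot groups was at percentile 99.5 of all probe sets.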

How the data were processed

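The authors processed ATH1 arrays with RMA, per the labels with the Affymetrix Expression Console, and deposited log2 values (versions not given in the sources used here). All root columns share 1 set of quantiles (2.88 to 13.56) and all shoot columns another (3.31 to 13.44), so the tissues were normalized separately. Nothing further was done to the values. Arrays have no read depth, and their number limits the precision. Removing 101 probe sets of organelle genes, as in the study's methods, left 22645. The WRKY symbols came from the platform annotation, in which 13513 probe sets have 1 symbol. The members, lists and tests were chosen with earlier results of these data known.

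For each tissue 1 limma fit (R 4.3.3, limma 3.58.1) of its 6 groups was made, and a fit of 12 groups compared responses between tissues. A call needed p below 0.01 before adjustment and a difference of 1 log2 unit or more, and Benjamini-Hochberg values were taken over all tested probe sets. The fits were tested on simulated data. Named genes were members called, the 3 most positive and 3 most negative in each response to an atmosphere, the 5 brightest, 5 dimmest and 5 most variable per tissue, and those with known roles, which took in all 6, with the 5 genes that correlated best with the member of widest span in each tissue. ZAP1, WRKY18, WRKY9, SAG101 and STZ fell outside this rule and were named after their values were seen. With 1 root array at 25 kPa/NormOx, its spread was assumed to equal that of the other groups. A shoot array at 50 kPa carries replicate number 2 in its title and 3 in its description, and the title was used. Alternatives were the groups compared alone, a replicate block, a random block of root and shoot arrays with 1 atmosphere and number (added after the data were seen), array weights, a trended robust prior, leaving out the dimmest 40% of probe sets, centring arrays on their medians, keeping organelle genes, dropping the fold minimum, and leaving out the outlying arrays or each array in turn.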

Additional observations from a re-analysis of the deposited data

Results flagged for a closer look

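WRKY53 at 50 kPa drew attention because a test of the difference between its responses in the tissues passed the threshold before adjustment. The root response minus the shoot response was -1.05 on the log2 scale (SE 0.35, unadjusted p = 0.00661, adjusted p = 0.469 in limma). All 3 root arrays at 50 kPa lay below the root controls, where 7.79% of all probe sets were fully separated in either direction. Of the 3 shoot arrays 2 lay above the shoot controls and the other, at 4.84, lay below them. The difference was called with 6 and not called with the other 6 of the 12 arrays left out in turn. It was not called without the outlying arrays, with the replicate number as a block or with only the groups compared in the fit. No WRKY value was an outlier within the 4 arrays of shoot 50 kPa/NormOx, the only group large enough to test, in 6 tests, where chance gives about 1 in 20. This group holds the outlying shoot array, on which WRKY20, WRKY22 and WRKY47 had their highest shoot value. A test on 4 arrays can miss such values, so its outcome does not show that these arrays were alike.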

How the results depend on the processing

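Array weights gave 1 call at root 50 kPa against 97 kPa (WRKY20, -1.02) and 3 of 6 in the root F test, from weights whose estimation had not converged. The weight was 91.05 for root 97 kPa replicate 2 and 0.06 for the outlying control. The share of all probe sets that passed with these weights is not given here, so the counts cannot be read as a result about the WRKY genes. The call of WRKY53 for root minus shoot at 50 kPa became 0 calls with only the groups compared, with the replicate block, without the outlying arrays and with array weights. The cause was not tested. For this contrast the array weights came from a fit of both tissues, whose estimation had not converged either. There root 97 kPa replicate 2 had a weight of 1.94e-09. Leaving out each array in turn gave 0 to 1 calls in this contrast. It also gave 0 to 1 calls against 97 kPa in roots at 50 kPa, 50 kPa/NormOx, 25 kPa and 97 kPa/HypOx, where the 1 was WRKY20 without root 97 kPa replicate 3, the lowest control (-1.28, -1.22, -1.24 and -1.18). For root minus shoot it gave 0 to 2 calls at 50 kPa/NormOx (WRKY20 -1.33 and WRKY22 -1.70, without the same array), 0 to 1 at 25 kPa (WRKY20 -1.32, without the same array) and 0 to 1 at 25 kPa/NormOx (WRKY53 -1.33, without shoot 25 kPa/NormOx replicate 3). No call reversed. Of 126 fold changes and differences of the members, 36 changed sign without the outlying arrays, 31 with array weights and 5 with the replicate block, and none with only the groups compared, the trended prior, median centring or organelle genes kept. The dim filter left 89 of the 126 values, with no sign change, and dropping the fold minimum changed no count. By the deviations from group means the replicate numbers were not taken to pair the arrays. The median r between same-numbered arrays was 0.10 across atmospheres in roots (13 of 26 pairs over 0.1) and -0.03 in shoots (12 of 40). For arrays with other numbers it was -0.05 and 0.01. Between root and shoot of 1 atmosphere it was 0.08 for the same number (6 of 13) and -0.04 for other numbers (4 of 28). Same-numbered arrays were thus slightly more alike in roots and between tissues, though not in shoots. The replicate block changed no other count. With the root and shoot arrays of an atmosphere and number as a random block, an alternative chosen after seeing the data, WRKY53 remained called at 50 kPa (1 call) and the other root minus shoot counts stayed at 0.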

Other observations

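WRKY6, chosen here after its values were seen, had among its closest shoot genes by Pearson's r the stress-response regulator BZIP60 (0.88 over 18 arrays, 0.88 over 17) and the ubiquitin ligase RING1 (0.87 and 0.87), and over the 17 arrays the immune kinase BIK1 was closest (0.90). The other shoot genes among its closest 5 over 18 arrays were AT3G26440, AT3G19660 and AT2G38240 (0.84 each). Over 17 arrays they were AT1G13990 (0.86) and AT1G51890 (0.85). In roots WRKY47 was the closest gene to WRKY6 but 1 (0.82 over 15 arrays, 0.81 over 14).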
